A study of Saccharomyces cerevisiae with 27 samples.

Results

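Transcript levels of Saccharomyces cerevisiae were compared between cultures held for 240 min at 41 °C and control cultures of the same age at 28 °C, across 5656 genes. The comparison rests on 6 of the 27 one-colour Affymetrix arrays of a heat time course, 3 from heated and 3 from control cultures, chosen by their labelled temperature and time. Every culture held strain X2180-1A, grown with aeration in a 500 ml fermentor on minimal medium with 2% glucose and no added amino acids. At an OD600 of 0.5 the heated cultures were brought to 41 °C, which took up to 5 min, and they stayed there, so that the samples at 240 min come from cells under continued heat and not from cells returned to 28 °C. The control cultures had reached an OD600 of 1.5 at 240 min. The labels call the 3 arrays of a group biological replicates and do not state whether a culture was sampled at more than 1 time. The other groups used here, with 3 arrays each, are heat at 30 and 120 min and the controls at 0 and 120 min, and the plot of lists by time also shows heat at 10, 60 and 360 min.

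Yeast meets a rise in temperature through separate regulators. The heat shock factor Hsf1 drives genes for chaperones, proteins that fold other proteins or keep them from clumping, and the factors Msn2 and Msn4 drive a general stress programme of sugar storage, antioxidant and membrane genes. At the same time the genes for ribosomes and their assembly are turned down. Much of this programme is known to be transient, and the comparison at 240 min asks what remains once the cells have had time to adjust. Equal amounts of RNA were labelled from bulk cultures, so the values are shares of the RNA of a sample, and fewer cells of a kind cannot be told apart from less RNA per cell.

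A signal below is the deposited intensity of a gene's probe set on an array. A fold is the difference between group means, of 3 arrays each, of log2(signal + 113.81) after quantile normalization of the arrays. It is printed as log2 fold ± SE, where limma estimated the spread of a gene within groups over all 27 arrays. The added offset of 113.81, the 10th percentile of the signals, understates the folds of dim genes. A gene was called where limma's adjusted p lay under 0.05, and rises and falls are named as such only where they passed that test. The p-values thus set a fold against the spread between replicate arrays at all times, and not against that of the 6 compared arrays alone. Replicate arrays correlated with r between 0.992 and 0.997 within the heated and the control group, and the median SD of a gene was 0.08 in the heated group and 0.06 in the control group on the log2 scale.

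Several array measures moved with the heated group. The mean signal of the 19 probe sets for non-yeast transcripts was 45.7 to 57.1 on the heated arrays and 86.5 to 102 on the control arrays, and the mean log2 signal of the ribosomal RNA probe sets was 7.01 to 7.48 against 8.58 to 9.14. The signal of 3' over 5' probe sets was 5.02 ± 0.49 (SD, n = 3) in heat and 2.53 ± 0.26 in the control for SRB4, and 1.09 ± 0.09 and 0.983 ± 0.028 for ACT1. Their part in the results was not tested. With the non-yeast level subtracted from every array 3399 genes were called, 3265 of them among the 3468 called here and 10 of those with the opposite sign. Quantile normalization followed the subtraction and keeps only the ranks within an array. The subtraction left these ranks unchanged except at the floor of 20, so this count cannot test the part of the background. Nearly identical gene copies, such as paired ribosomal protein genes, tRNA genes and the SSA genes, can hybridise to each other's probes, which makes their separate values uncertain.

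After 240 min at 41 °C, 3468 of the 5656 genes differed from the control of the same time, which is 61.3% of the genes tested. Of these, 1599 rose (28.3%) and 1869 fell (33%). The counts of rises and falls in the gene lists below are to be read against these 2 shares. Most differences were small. The quartiles of the log2 fold over all genes were -0.29 and 0.23, and 203 genes rose at least 2-fold (3.59%) while 144 fell at least 2-fold (2.55%). These counts depend on the offset, and without it 345 genes rose and 279 fell at least 2-fold. At 4-fold there were 44 rises and 11 falls. The 3 heated arrays lay entirely above or entirely below the 3 control arrays for 3987 genes (70.5%). Split by mean signal into 4 equal sets of genes, the brightest set had 30.2% risen and 32.5% fallen, and the dimmest 23.8% and 34.7%.

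HSP30 (YCR021C) had the largest rise. It encodes a plasma membrane protein that restrains the proton pump Pma1. Its signal was 5496, 5916 and 5453 on the heated arrays and 54.0, 94.4 and 59.4 on the control arrays, where it lay at or below the mean of the non-yeast probe sets. Against that mean it was at least 60.1-fold higher in heat, and its log2 fold with the offset was 5.02 ± 0.09 (adjusted p = 6.3e-22). The same held for TPO2 (YGR138C), a polyamine exporter, which read 1602, 1749 and 1449 in heat against 54.0, 66.5 and 50.9 in the control and was at least 17.1-fold higher. YJR079W, an open reading frame with no assigned function, read 1766, 1453 and 1716 against 83.8, 101 and 78.5, at least 17.5-fold higher. For these 3 genes the heated arrays measured a level and the control arrays only a bound.

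The other large rises started from a measurable level. HSP26 (YBR072W), a small heat shock protein that binds unfolding proteins, read 6616, 7111 and 7147 in heat and 273, 305 and 256 in the control, a log2 fold of 4.18 ± 0.09 (adjusted p = 5.48e-21). SSA4 (YER103W), the stress-inducible Hsp70, read 5046, 5250.1 and 5868 against 365, 429 and 335 (3.52 ± 0.12). YRO2 (YBR054W), a membrane protein related in sequence to Hsp30, read 3859.6, 3790.5 and 3288 against 277, 285 and 234 (3.35 ± 0.11). In each case the lowest heated array lay more than 10-fold above the highest control array. JLP1 (YLL057C), a dioxygenase that frees sulfite from sulfonates, rose by 3.34 ± 0.18 with more spread, from 123, 142 and 129 to 2019, 2954 and 2221. TDH1 (YJL052W), the stress isozyme of glyceraldehyde-3-phosphate dehydrogenase, read 4468, 4461 and 3935 against 368, 479 and 362 (3.13 ± 0.11). YGP1 (YNL160W), a secreted cell wall glycoprotein, reached 7461, 7542 and 6625 from 833, 960.3 and 843 (2.91 ± 0.13). The pheromone precursor MFA1 (YDR461W) closed the 12 largest rises, with 1155, 1736 and 1674 in heat and 121, 135 and 112 in the control (2.74 ± 0.12). The remaining members of the 12, BTN2 and HSP42, are chaperones and are described with them.

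The largest falls were in nutrient uptake and in the supply of one-carbon units. SUL1 (YBR294W), the high-affinity sulfate permease, read 285, 428 and 288 in heat and 4611, 4898 and 5284 in the control, a log2 fold of -3.48 ± 0.16 (adjusted p = 1.59e-14). PHO84 (YML123C), the high-affinity phosphate transporter, went to 397, 485 and 389.5 from 3011, 3366 and 3131 (-2.60 ± 0.16), and DAL5 (YJR152W), the allantoate permease, to 1356, 944 and 1134 from 6586, 6379 and 7426 (-2.41 ± 0.09). All 3 are transporters of the plasma membrane. Groups that do not overlap were a condition for each of the 12 largest rises and falls. The 3 subunits of the glycine cleavage complex that are named GCV fell together. GCV2 (YMR189W), the glycine decarboxylase, read 531, 526 and 491 against 4533, 4493 and 4642 (-2.85 ± 0.09), GCV1 (YDR019C), the T protein, 232, 191 and 214 against 1807, 1859.6 and 2330.5 (-2.77 ± 0.11), and GCV3 (YAL044C), the H protein that carries lipoic acid, 1544, 1179 and 1524 against 6699, 6143 and 7950.2 (-2.16 ± 0.13). SHM2 (YLR058C), the cytosolic enzyme that makes one-carbon units from serine, had 1401, 1329.7 and 1319 against 6478, 6498 and 6432 (-2.08 ± 0.09), and ADE8 (YDR408C), a step of purine synthesis that consumes them, 524, 482 and 504 against 2386, 2481 and 2916 (-2.15 ± 0.16). The other 4 of the 12 largest falls were in RNA genes. These were RDN25-1, the 25S ribosomal RNA, with a log2 fold of -2.17 ± 0.58 and a wide spread among the heated arrays (655, 1607 and 589), and the tRNA genes SUF2 (-2.11 ± 0.15), SUF10 (-2.06 ± 0.16) and YNCG0028W (-1.87 ± 0.16). The plot of array signals for these genes shows every value. On the heated arrays the non-yeast and ribosomal RNA probe sets were also lower, and their part in the 4 falls of RNA genes was not tested.

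**Figure D1:**
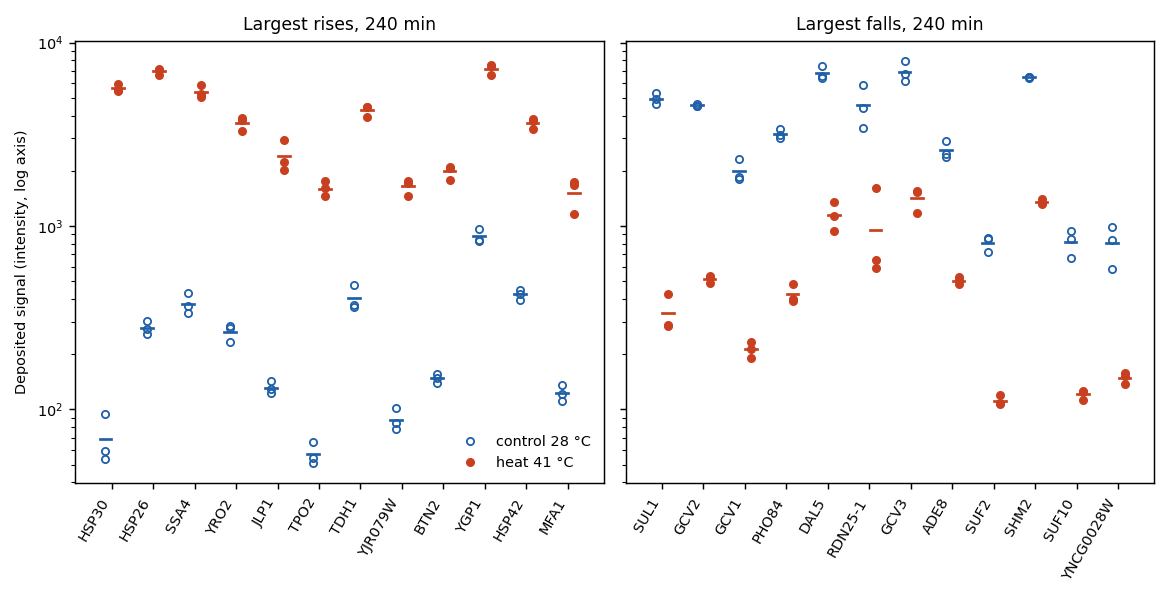
Deposited signal (log axis) of the 12 genes with the largest rises and the 12 with the largest falls, for each of the 3 control arrays (open circles) and the 3 heated arrays (filled circles) at 240 min, with group means as bars. The 24 genes were chosen among those whose groups do not overlap, and RDN25-1 has 1 heated array (1607) well above the other 2 (655 and 589).

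Among the chaperones of the cytosol, those that deal with protein aggregates were higher at 240 min. All 8 measured members of the list of disaggregase and small heat shock proteins rose, with a median log2 fold of 2.19, against -0.03 over all genes tested. BTN2 (YGR142W), which sorts misfolded proteins to deposit sites, read 1788, 2065 and 2106 against 139, 156 and 147 (2.99 ± 0.12), and its relative CUR1 rose by 1.12 ± 0.11. The small heat shock protein HSP42 (YDR171W) read 3388, 3822 and 3736 against 426, 446 and 397 (2.85 ± 0.10). HSP104 (YLL026W), the disaggregase that pulls proteins out of aggregates, had 6149.9, 5569 and 6121 in heat and 1038, 1178 and 1239 in the control (2.31 ± 0.09, adjusted p = 2.6e-16). HSP31, a glyoxalase with chaperone activity, rose by 2.07 ± 0.09. HSP12, a small protein that stabilises membranes, rose by 1.21 ± 0.10, and the smallest rise in the list was that of MBF1 (0.68 ± 0.07), which is a transcriptional coactivator and not a chaperone.

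In the Hsp70 system the median log2 fold was 0.85, with 7 rises, 1 fall and 1 gene not called among 9 measured. The inducible Hsp70s stood out by size, with SSA4 at 3.52 and SSA3 at 2.21 ± 0.19, while the constitutive SSA1 and SSA2 rose by 0.85 ± 0.06 and 0.32 ± 0.05 from signals that were already among the highest on the arrays (14371, 14425 and 14721 for SSA1 in the control). As the brightest genes set the top of the quantile scale, the fold of SSA1 is also given in the deposited values, where it was 1.85. The exchange factors of Hsp70 rose too, SSE2 by 2.67 ± 0.09, FES1 by 1.11 ± 0.09 and SSE1 by 0.58 ± 0.07. SNL1, an exchange factor anchored in the membrane of the endoplasmic reticulum, was the 1 member that fell (-1.17 ± 0.06), from 580.2, 540.5 and 592 to 211, 210.2 and 219. Of 12 measured J-domain proteins, the partners that hand substrates to Hsp70, 3 rose and 5 fell. The rises were those of SIS1 (1.14 ± 0.08), APJ1 (1.01 ± 0.11) and YDJ1 (0.87 ± 0.11), and no fall in this list reached 2-fold.

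Hsp90 and its co-chaperones showed 8 rises and 2 falls among 14 measured genes, with a median of 0.41. In the values as deposited there were 8 rises and 0 falls. The inducible Hsp90, HSP82 (YPL240C), read 8625, 7986 and 9204 in heat and 1358, 1286 and 1313 in the control (2.65 ± 0.08), and its constitutive twin HSC82 read 6986, 7426 and 7125 and 6147, 5316 and 5906 (0.45 ± 0.07). The large change was that of the inducible copy. Next in size were the cyclophilin CPR6 (2.12 ± 0.10), the ATPase activators AHA1 (1.69 ± 0.07) and HCH1 (1.16 ± 0.10), and STI1 (1.47 ± 0.09), which bridges Hsp70 and Hsp90. CDC37, the co-chaperone of protein kinases, rose by 0.40 ± 0.12. The chaperonin CCT and its partner prefoldin, which fold actin and tubulin, went the other way, with 8 falls, 1 rise and 6 genes that did not pass among 15, such as CCT7 (-0.67 ± 0.09) and CCT8 (-0.55 ± 0.10).

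Folding in organelles was raised in part. In the mitochondrial list 8 of 15 measured genes rose and 2 fell, with the disaggregase HSP78 (2.01 ± 0.09), the J protein MDJ1 (1.12 ± 0.15), the chaperonin subunits HSP10 (1.01 ± 0.07) and HSP60 (0.79 ± 0.05) and the mitochondrial Hsp70 SSC1 (0.47 ± 0.08) among the rises. The falls were those of MGE1 (-0.69 ± 0.10), the exchange factor of SSC1, and MDJ2 (-0.46 ± 0.07). In the endoplasmic reticulum 13 of 23 genes rose and 4 fell. ERO1, the oxidase for disulfide bonds, rose by 1.08 ± 0.12, the disulfide isomerase EUG1 by 0.87 ± 0.08 and the Hsp70 KAR2 by 0.62 ± 0.07, while the transcript of HAC1, the factor of the unfolded protein response, fell (-0.61 ± 0.10), with 1 heated array (1510) below the other 2 (2341 and 2338).

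**Figure D2:**
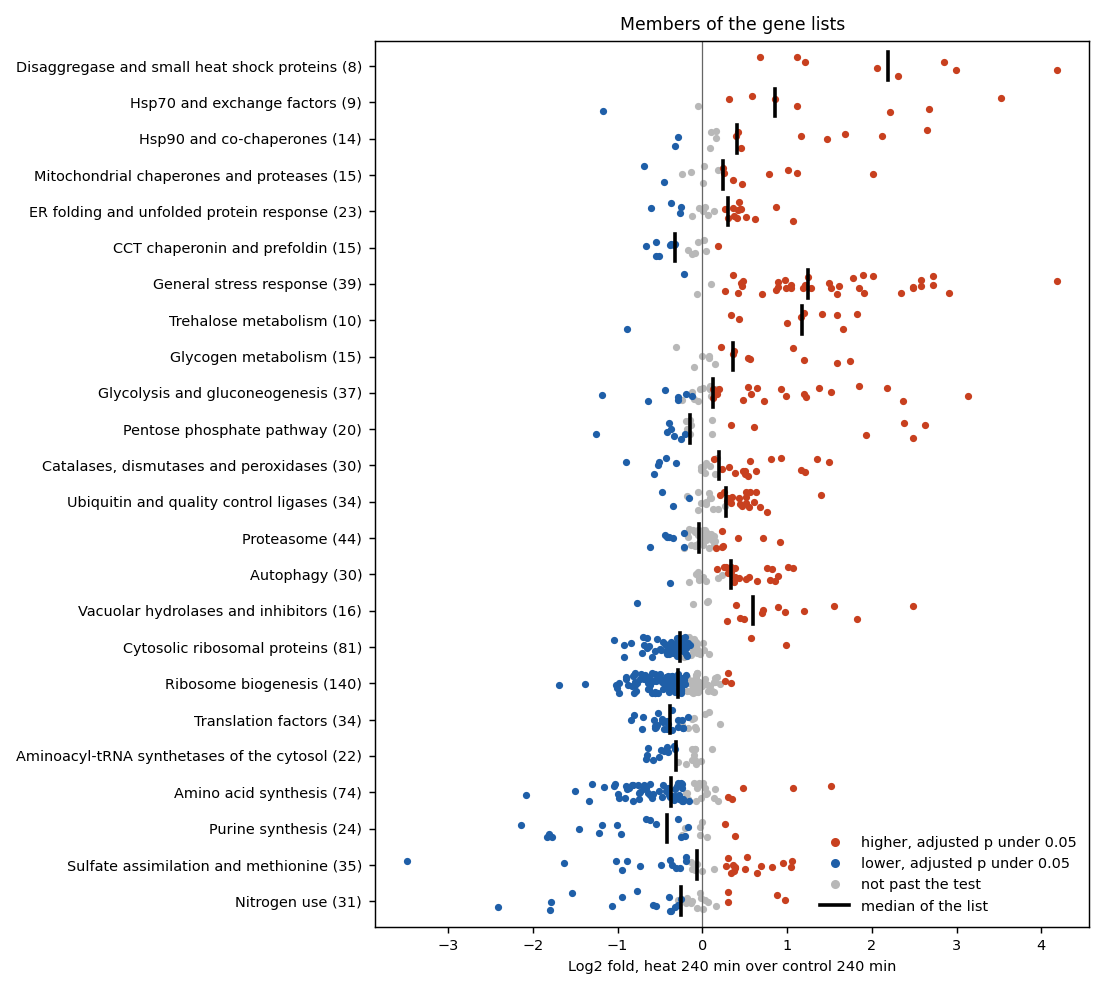
Log2 fold at 240 min of each measured member of 24 gene lists (number of members in brackets), with the list median as a black bar. Points are red or blue where the gene rose or fell at an adjusted p under 0.05 and grey where it did not pass. Chaperone, general stress and trehalose lists lie mostly to the right, and ribosome, amino acid and purine lists mostly to the left of 0.

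The general stress programme remained raised. Of 39 measured genes in the general stress list, 36 rose, 24 of them at least 2-fold, with a median of 1.25. The list was drawn up with earlier results of these data known, and control of its members by Msn2 and Msn4 was not tested. Beside HSP26 and YGP1, the largest rises were those of the wall protein SPI1 (2.72 ± 0.12) and DDR2 (2.72 ± 0.08), a small protein of unassigned function. DDR2 read 6725, 5817 and 5884 in heat and 851, 952 and 799 in the control. CTT1, the cytosolic catalase T and a standard marker of this programme, read 545, 609.7 and 598 against 117, 138 and 102 (1.50 ± 0.13). The 1 fall, of RGI2 (-0.22 ± 0.07, adjusted p = 0.0139), was lost in the values as deposited (-0.12) and at -0.19 without replicate 2 of the control.

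Trehalose and glycogen, the storage sugars that yeast builds up under stress, were represented by rises on both the making and the breaking side. For trehalose, 9 of 10 genes rose and PGM1, the minor phosphoglucomutase, fell (-0.89 ± 0.08). The synthase complex rose through TPS1 (1.16 ± 0.06), TPS2 (1.41 ± 0.14), TSL1 (1.66 ± 0.05) and TPS3 (0.34 ± 0.07), and the trehalases that split the sugar through NTH1 (1.82 ± 0.08), ATH1 (from 258, 266 and 247 to 734, 839 and 779) and NTH2 (1.00 ± 0.06). TSL1 had signals of 5977, 5386 and 5270.3 in heat and 1647, 1939 and 1747 in the control, and NTH1 of 2365, 2522 and 2568 and 638, 663 and 663. Synthesis and breakdown genes thus moved in the same direction. For glycogen, 9 of 15 genes rose and 6 did not pass, with the phosphorylase GPH1 (1.74 ± 0.11), the phosphatase subunit GAC1 (1.59 ± 0.15), the synthase GSY2 (1.19 ± 0.11) and the debranching enzyme GDB1 (1.07 ± 0.08) at the top. GAC1 came from 44.7, 46.4 and 37.0 in the control, below the non-yeast probe sets, and was at least 4.15-fold higher in heat.

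In central sugar metabolism several alternative isozymes rose. In glycolysis and gluconeogenesis 19 of 37 genes rose and 7 fell, with a median of 0.12. Beside TDH1, the rises at the top were those of ADH2 (2.37 ± 0.15), the alcohol dehydrogenase that is repressed on glucose, PDC6 (2.18 ± 0.09), a minor pyruvate decarboxylase at or below the non-yeast mean on 1 control array, and ALD3 (1.85 ± 0.12), a stress aldehyde dehydrogenase. The glucose kinases HXK1 (1.38 ± 0.11) and GLK1 (from 3275, 3939.8 and 3501 to 7775, 7443 and 7469.5) rose while HXK2, the kinase of growth on glucose, fell (-0.28 ± 0.07), and the alcohol dehydrogenase ADH5 fell by more (-1.18 ± 0.14). In the pentose phosphate list 6 of 20 genes rose and 7 fell, near the shares of 28.3% and 33% over all genes. NQM1 (2.62 ± 0.12), SOL4 (2.48 ± 0.11), TKL2 (2.38 ± 0.19) and GND2 (1.93 ± 0.11), the second copies of the pathway's enzymes, rose, and RKI1, the single ribose-5-phosphate isomerase, fell (-1.26 ± 0.09). Of the sugar transporters, HXT5 rose (2.20 ± 0.10) with signals of 1895, 1759 and 1970.0 against 324, 353 and 261, HXT4 rose (1.41 ± 0.15), and HXT2 fell (-1.71 ± 0.11), from 3505, 4250.1 and 4159.9 to 1193, 982 and 1117.

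Of 44 genes of the respiratory chain and ATP synthase 15 rose (34.1%) and 14 fell (31.8%), near the shares of 28.3% and 33% over all genes, and the sign of their median, 0.02, turned in the values as deposited (-0.05). STF2 (1.90 ± 0.10), a stabiliser of an ATP synthase inhibitor, and CYC7 (1.81 ± 0.11), the stress isoform of cytochrome c, rose, and the oxidase subunit COX4 fell (-0.93 ± 0.13). Of the 30 genes known from cells that have used up their glucose, 18 rose and 11 fell. The falls became 5 in the values as deposited and 9 with array medians equalized.

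Antioxidant genes rose in part, with 16 rises and 6 falls among 30. The mitochondrial peroxiredoxin PRX1 (1.36 ± 0.08), the glutaredoxin GRX1 (1.21 ± 0.09), the sulfiredoxin SRX1 (1.17 ± 0.13) and the mitochondrial superoxide dismutase SOD2 (0.93 ± 0.11) rose. Both enzymes of glutathione synthesis fell, GSH1 (-0.52 ± 0.09) and GSH2 (-0.57 ± 0.11), and so did the peroxidase GPX2 (-0.90 ± 0.09), which lay at or below the non-yeast mean on 1 heated array.

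Several genes that mark proteins for destruction rose, and the list of proteasome genes had a median near 0. RPN4 (YDL020C), the transcription factor of the proteasome genes, read 2547, 2550.1 and 2749 in heat and 774, 787 and 898 in the control (1.61 ± 0.10, adjusted p = 4.99e-12). The polyubiquitin gene UBI4 rose by 1.40 ± 0.07, from 1878, 2019 and 2177 to 5213, 5142 and 5280.1, and 19 of 34 genes for ubiquitin enzymes and ligases rose while 3 fell, among them the ligase RSP5 (-0.35 ± 0.09) and the ubiquitin receptor DSK2 (-0.48 ± 0.10). Of the 44 measured proteasome genes, 7 rose, 7 fell and 30 did not pass, with a median of -0.04 whose sign turned when replicate 1 of the heated or replicate 3 of the control arrays was left out. The assembly chaperone NAS2 rose (0.92 ± 0.09), and the ubiquitin receptor RPN13 (-0.62 ± 0.11) and the core subunit PRE9 (-0.42 ± 0.10) fell. In autophagy, the delivery of cell material to the vacuole for breakdown, 20 of 30 genes rose and 1, ATG10 (-0.38 ± 0.06), fell. ATG1, the kinase that starts autophagy, rose by 1.07 ± 0.07, ATG7 by 0.86 ± 0.06 and ATG8, whose product coats the autophagic membrane, by 0.82 ± 0.14. Of 16 vacuolar hydrolases and their inhibitors 12 rose, the protease PRB1 (0.89 ± 0.08) together with its inhibitor PBI2 (0.97 ± 0.12), and 1 fell, the carboxypeptidase CPS1 (-0.77 ± 0.13).

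Genes of the ribosome and of translation were lower, by small amounts. Of 81 measured genes for cytosolic ribosomal proteins 53 fell, 2 rose and 26 did not pass, with a median of -0.26. The falls became 70 in the values as deposited, and 77 with array medians equalized, where the median was -0.49. The 2 rises were those of RPL15B (0.99 ± 0.15), from 1068, 994 and 1121 to 2264, 1947 and 2402, and RPS14B (0.57 ± 0.08), and 1 gene fell at least 2-fold. Ribosome biogenesis had 91 falls and 3 rises among 140 genes, with a median of -0.29. The deepest falls there were those of DBP2 (-1.69 ± 0.10), an RNA helicase, NOP1 (-1.39 ± 0.13), the fibrillarin of the nucleolus, and NHP2 (-1.02 ± 0.10) and CBF5 (-1.01 ± 0.14), both parts of the machine that converts uridine to pseudouridine in ribosomal RNA. NOP1 read 1500.4, 1068 and 1514 against 3567, 4087 and 3859, and DBP2 672, 813 and 709 against 2587, 2553 and 2704. Of the rises, ECM16 had 0.34 ± 0.10, and RRP36, at or below the non-yeast mean on all 3 control arrays, was at least 1.27-fold higher. RNA polymerases I and III had 18 falls and 5 rises among 41 genes, against 33% fallen and 28.3% risen over all genes. In the values as deposited there were 14 falls and 6 rises, and with array medians equalized 21 and 4. RPO26 (-0.88 ± 0.08), a subunit that all 3 nuclear polymerases share, and RPA34 (-0.83 ± 0.11) fell, and the 2 largest subunits of polymerase III, RPO31 (0.41 ± 0.08) and RET1 (0.52 ± 0.07), rose. Of 34 translation factors 25 fell and none rose, such as TIF35 (-0.85 ± 0.09) and TIF4631 (-0.80 ± 0.09) of initiation. In the values as deposited 23 fell and 1 rose, and with array medians equalized 30 fell. Of 22 tRNA synthetases of the cytosol 11 fell and none rose, such as CDC60 for leucine (-0.66 ± 0.12) and WRS1 for tryptophan (-0.66 ± 0.09). That count depends on the scaling, with 17 falls in the values as deposited and 21 with array medians equalized.

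Biosynthesis of purines and amino acids was lower. In the purine list 16 of 24 genes fell, 8 of them at least 2-fold, and 2 rose, with a median of -0.42. ADE17 (YMR120C) read 1577, 1281 and 1353 in heat and 5457, 5476 and 5792 in the control (-1.84 ± 0.07), and ADE4, the first step of the pathway, 171, 168 and 153 against 818, 768 and 829 (-1.81 ± 0.09). ADE1 (-1.77 ± 0.13), ADE13 (-1.45 ± 0.11), the folate enzyme MTD1 (-1.21 ± 0.11) and HPT1 (-1.18 ± 0.14), which salvages hypoxanthine, fell too. The 2 rises were those of PHO2 (0.27 ± 0.06), a transcription factor, and IMD4 (0.39 ± 0.11), an IMP dehydrogenase of the guanine branch whose call was lost with array medians equalized (0.15). The falls of ADE8, SHM2, the GCV genes and MTD1 place several consecutive steps of folate and purine metabolism among the lowered genes.

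Of 74 measured genes of amino acid synthesis outside the sulfur branch 52 fell and 5 rose, with a median of -0.37 that became -0.61 with array medians equalized. HIS1, the first step towards histidine, had 1245, 1237 and 1249 in heat and 3819, 3903 and 3875 in the control (-1.50 ± 0.09), and TRP4 (-1.34 ± 0.09), ASN1 (-1.31 ± 0.10) and ARG4 (-1.16 ± 0.09) fell as well. Among the rises were GDH3, a glutamate dehydrogenase of cells short of glucose, with 1844, 916 and 1296 against 339, 435 and 318 (1.52 ± 0.17), the aromatic aminotransferase ARO9 (1.06 ± 0.09), the threonine aldolase GLY1 (0.48 ± 0.09) and the glutamate-degrading GDH2 (0.30 ± 0.09). The uptake genes moved both ways, and BAP2, a permease for branched-chain amino acids, rose from 139.7, 162 and 134 to 991, 1449 and 1162 (2.27 ± 0.17).

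Sulfur metabolism was divided. Of 35 genes 15 rose and 13 fell, against 28.3% and 33% over all genes. Beside SUL1, the falls included MET22 (-1.63 ± 0.07), which clears a by-product of sulfate reduction, and SAM1 (-0.89 ± 0.09), which makes S-adenosylmethionine. The methionine permeases MUP3 (1.05 ± 0.12) and MUP1 (1.04 ± 0.15) and MET2 (0.82 ± 0.07), a step towards homocysteine, rose, as did JLP1. Of 31 genes for poor nitrogen sources 15 fell and 4 rose. DAL7 (-1.79 ± 0.12) and DAL2 (-1.54 ± 0.10) of allantoin breakdown, the repressor DAL80 (-1.79 ± 0.15) and the general amino acid permease GAP1 (-1.06 ± 0.17) fell. The rises were those of UGA1 (0.97 ± 0.08) and UGA2 (0.88 ± 0.09), which degrade gamma-aminobutyrate, GDH2 and CAR1 (0.30 ± 0.08). In the phosphate list 13 of 28 genes fell and 8 rose. The transporter PHO89 (-1.83 ± 0.11) and SPL2 (-1.62 ± 0.10), a regulator of phosphate uptake, fell with PHO84, while PHO3, an acid phosphatase that is repressed by thiamine, read 2675, 3004 and 2995 in heat and 494, 638 and 536 in the control (2.23 ± 0.12), and PHM8 (1.62 ± 0.08) was at least 4.43-fold higher. Iron uptake had 13 rises and 6 falls among 37 genes, led by the wall mannoprotein FIT2 (2.48 ± 0.15) and the siderophore transporter ARN1 (1.38 ± 0.17).

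Of 58 genes for the cell wall 20 rose (34.5%) and 17 fell (29.3%), near the shares over all genes, and the sign of their median (0.04) turned in the values as deposited (-0.06). GSC2, the glucan synthase subunit used under stress, read 3431, 3674 and 3462 against 868, 1031 and 866 (1.88 ± 0.09), and the wall proteins PIR3 (1.87 ± 0.11) and TIP1 (1.78 ± 0.08) rose. In the wall integrity pathway, 11 of 26 genes rose, among them the kinase SLT2 (0.66 ± 0.13) and the exchange factor ROM1 (1.07 ± 0.08), and 6 fell. Fatty acid synthesis had 9 falls and 3 rises among 15 genes, with ACC1 (-0.59 ± 0.09), FAS2 (-0.50 ± 0.07) and FAS1 (-0.34 ± 0.09) among the falls. In ergosterol synthesis 10 genes rose and 9 fell of 34, against 28.3% and 33% over all genes. ERG3 (0.55 ± 0.08) and ERG25 (0.54 ± 0.07) were among the rises and ERG12 (-0.89 ± 0.14) among the falls.

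The lists of cell cycle genes differed. In G1 and S phase 21 of 56 genes rose and 9 fell, against 28.3% and 33% over all genes. In the values as deposited 25 rose and 5 fell. The ribonucleotide reductase subunits RNR4 (0.79 ± 0.07) and RNR1 (0.69 ± 0.11) rose, and the G1 cyclin CLN1 (-0.79 ± 0.09) and SVS1 (-1.07 ± 0.16), a wall protein of late G1, fell. Mitosis and cytokinesis gave no clear direction, with 14 of 68 genes risen and 19 fallen, both below the shares over all genes. In the values as deposited 18 rose and 14 fell. CDC28 (0.88 ± 0.09), the main cyclin-dependent kinase, rose. The kinase KIN3 (-0.75 ± 0.08) and the daughter-cell genes DSE2 (-0.78 ± 0.18) and SCW11 (-0.58 ± 0.13) fell.

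Of 22 transcription factors of the heat and stress responses 9 rose and 4 fell. HSF1 (0.13 ± 0.08, adjusted p = 0.163) and MSN2 (-0.07 ± 0.08, adjusted p = 0.498) did not pass the test, and MSN4 rose by 0.42 ± 0.08. The rises also included those of XBP1 (1.05 ± 0.13), a repressor of cell cycle genes under stress that lay at or below the non-yeast mean on 1 control array, and of ADR1 (0.97 ± 0.09) and HAP4 (0.69 ± 0.13), which serve growth without glucose. CAT8, of the same function, was at or below that mean on all 3 control arrays and at least 2.69-fold higher in heat. Of the 12 common reference genes 9 did not pass the test. ACT1 (0.09 ± 0.05) and TDH3 (-0.05 ± 0.07) were among these, and their signs turned in the values as deposited (-0.02 and 0.11). With the mean of a gene's probe sets in place of the brightest, both passed limma's test. ACT1 then had 0.12 (limma's adjusted p = 0.045) and TDH3 -0.19 (limma's adjusted p = 0.00143).

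X2180-1A is a haploid of mating type a by common knowledge of the strain, which the labels do not state. Among the markers of that type, STE2 and BAR1 were dim in the control. The pheromone receptor STE2 read 51.6, 67.5 and 47.4, and the protease BAR1 42.4, 47.8 and 41.2, all below the mean of the non-yeast probe sets on those arrays, and in heat they read 114, 148 and 127 (at least 1.38-fold higher) and 106, 101 and 128 (at least 1.19-fold higher). MFA2, the second gene for a-factor, read 415, 468 and 395 in the control and 788, 762 and 812 in heat (0.67 ± 0.12). STE6, the exporter of a-factor, read 130.2, 123 and 122 in the control and 152, 162 and 160 in heat. ASG7 read 259, 294 and 224 in the control and 277, 256 and 229 in heat. AGA2 read 98.2, 114 and 84.1 in the control and 251, 275 and 263 in heat. MFA1, also of this type, is given above with the largest rises. Among the markers of the opposite type, the receptor STE3 read 31.6, 32.1 and 29.6 in the control, below the non-yeast mean, and 79.7, 77.5 and 74.4 in heat. SAG1, the agglutinin of that type, read 486, 618 and 500.1 in the control and 370.4, 349.5 and 384 in heat. The pheromone gene MF(ALPHA)1 read 892, 861 and 918 in the control and 684, 564 and 572 in heat (-0.56 ± 0.18). MF(ALPHA)2 read 118, 139 and 99.2 in the control and 82.0, 68.3 and 70.1 in heat. AFB1 went the other way, with 65.5, 87.2 and 68.4 in the control and 178, 194 and 178 in heat. The part of these levels in other results was not tested.

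The state at 240 min was set against the early response at 30 min, which was measured against the control at 0 min and shares no array with the comparison at 240 min. The difference of the 2 heat effects was called for 3837 genes (67.8%), 1754 of them with a higher (31%) and 2083 with a lower value (36.8%) at 240 min, a split that turned to 2006 and 1631 in the values as deposited. Most early changes of at least 2-fold had become smaller. Of the 729 genes at least 2-fold up at 30 min, 684 had a difference towards 0 that passed the test and 167 (22.9%) were still at least 2-fold up at 240 min. Of the 802 genes at least 2-fold down at 30 min, 757 had moved towards 0 and 66 (8.23%) were still at least 2-fold down. Both sets were chosen by their values at 30 min, which also enter the difference, and that choice favours a difference towards 0. Without the limit of 2-fold, 580 of the 729 and 543 of the 802 were called in the same direction at 240 min. Over all genes 28.3% rose and 33% fell at that time. Seen from the later time, 190 of the 203 genes that were 2-fold up at 240 min had also been called up at 30 min. Of the 144 genes 2-fold down at 240 min, 97 had been called down at 30 min. A further 41 had not been called and 6 had been called up. Over all 5656 genes, 2303 were called up and 2273 down at 30 min.

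**Figure D3:**
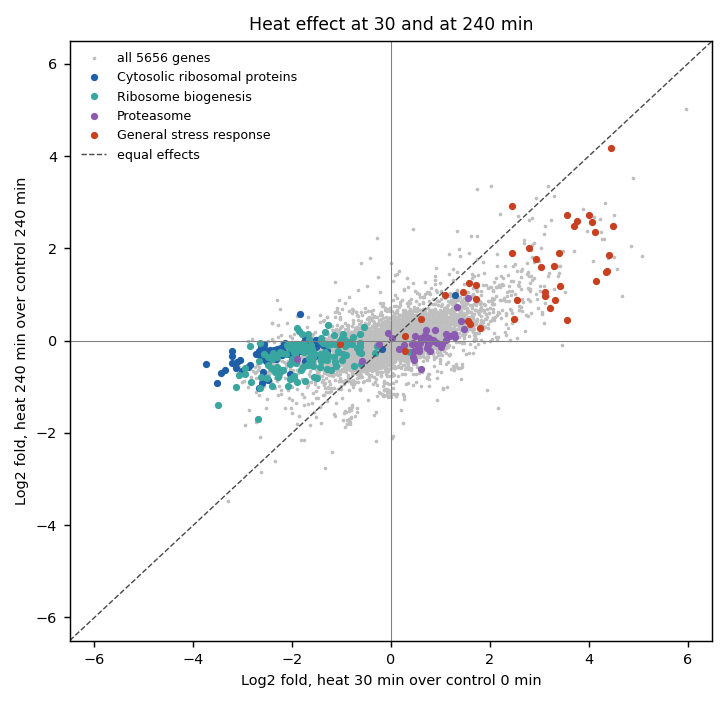
Log2 fold at 240 min over the control of the same time against log2 fold at 30 min over the control at 0 min, 1 point for each of 5656 genes, with 4 gene lists coloured and the line of equal effects dashed. Ribosomal protein and ribosome biogenesis genes lie far left of 0 at 30 min and near 0 at 240 min, and most general stress genes lie below the dashed line.

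The lists differed in how much of the early change was left. Ribosomal protein genes had a median of -2.30 at 30 min and -0.26 at 240 min, and for 79 of 81 the difference was called as higher at 240 min. RPL13A read 278, 362 and 342 at 30 min, against 6202, 5693 and 7492 in the control at 0 min, and 4299.9, 4038 and 4492 at 240 min against 6937, 6133 and 7432, a difference of 3.25 ± 0.15. RPL6B (2.98 ± 0.12), the polymerase I subunit RPA135 (2.88 ± 0.11) and the ribonucleotide reductase RNR1 (2.94 ± 0.16) followed the same course. RNR1 had fallen to 501, 596 and 488 at 30 min and lay above its control at 240 min. Ribosome biogenesis went from -1.65 to -0.29, with 136 of 140 differences called as higher and 1 as lower, and amino acid synthesis from -1.31 to -0.37, with 60 of 74 higher. The proteasome had a median of 0.70 at 30 min and -0.04 at 240 min, and 39 of 44 differences were called as lower. The general stress list went from 3.11 to 1.25, trehalose from 2.16 to 1.18, and the disaggregase list from 2.98 to 2.19.

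Single stress genes differed widely in what was left. HSP82 stood at 2.85 at 30 min and 2.65 at 240 min. CTT1 stood at 4.35 and 1.50, a difference of -2.85 ± 0.18, and SSA3 at 4.30 and 2.21 (-2.09 ± 0.28). The largest losses were those of FMP45 (-3.69 ± 0.20) and YNL194C (-3.23 ± 0.22), membrane proteins of the Sur7 family, of YDL218W (-3.55 ± 0.20), of SIP18 (-3.10 ± 0.25), a protein of dried cells, and of the 5S ribosomal RNA gene RDN5-1 (-3.62 ± 0.49), which read 11556, 13493 and 11692 at 30 min and 1332, 2276 and 1415 at 240 min. YNL194C and SIP18 lay at or below the non-yeast mean on the 3 control arrays at 240 min, so their values depend on the offset. FMP45 read 7761, 7154 and 6412 at 30 min and 543, 402 and 489 at 240 min, and YDL218W 3083, 2172 and 1785 and 129.7, 124 and 120.0, where its controls at 240 min read 112, 151 and 109. YDL218W had thus returned to the range of its control.

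Other genes had a larger effect late than early. Of the genes 2-fold up at 240 min, 41 of 203 had a difference called in their own direction, against 31% called higher over all genes. Of the genes 2-fold down 79 of 144 did, against 36.8% called lower over all genes. Both sets were chosen by their values at 240 min, which also enter the difference. That choice favours a difference in their own direction, so the shares over all genes are not a like baseline. TPO2 rose from 1.75 at 30 min to 3.29 at 240 min (difference 1.55 ± 0.15), JLP1 from 2.02 to 3.34 and PRY2, a secreted sterol-binding protein, from -2.31 to 0.88. On the falling side GCV1 went from -1.34 to -2.77 (-1.42 ± 0.15). SUL1, at -3.30 and -3.48, had no called difference (adjusted p = 0.501), and neither had TDH1, at 3.29 and 3.13 (adjusted p = 0.395). The plot of lists by time places both times among the others.

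**Figure D4:**
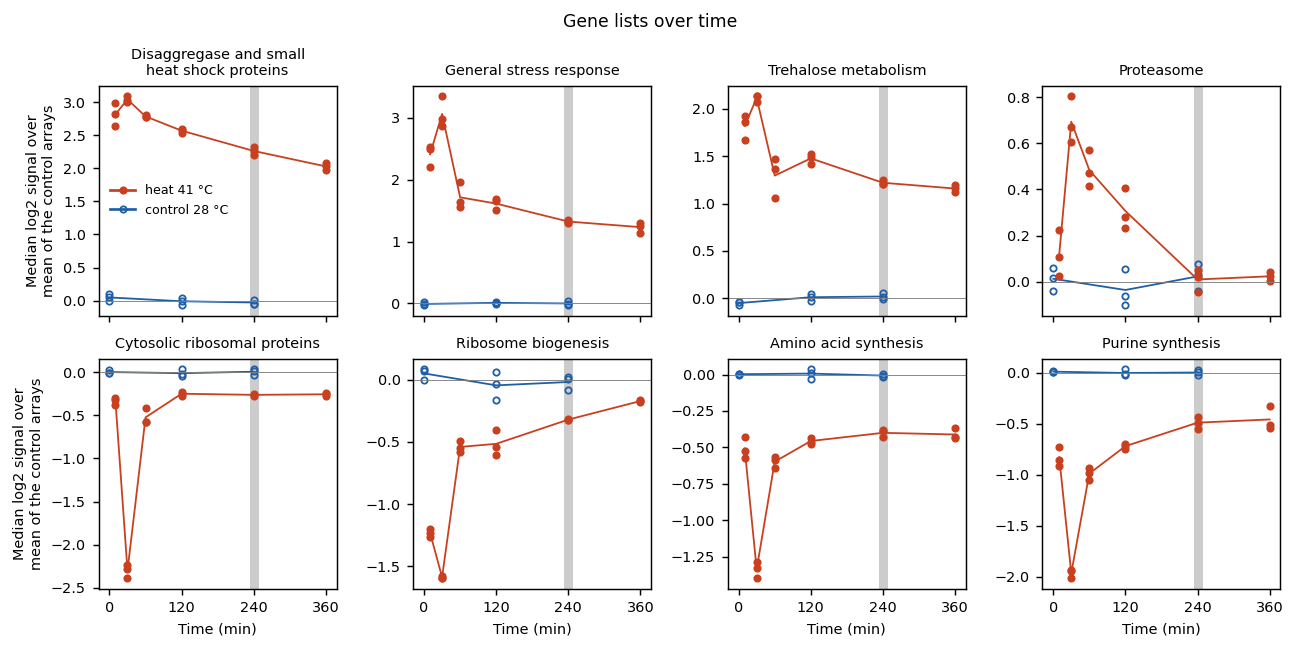
Median over the members of 8 gene lists of the log2 signal relative to the mean of the 9 control arrays, by time (min), 1 point per array, heated arrays filled, control arrays open, lines through group means, the grey band at 240 min. The general stress list peaks at 30 min and at 240 min lies between 1.30 and 1.35, and the proteasome list reaches the range of the controls at 240 min.

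Between 120 and 240 min the change was smaller. The difference of the 2 heat effects, each against the control of its own time, was called for 601 genes (10.6%), 308 higher (5.45%) and 293 lower (5.18%) at 240 min, and 31 of them differed at least 2-fold. In the values as deposited the split was 181 higher and 447 lower. The count rested in part on single arrays, with 399 genes called without replicate 1 at 240 min of heat and 386 without replicate 3 at 120 min. The 293 lower genes became 173 and 168 without these, 178 and 168 without replicates 1 and 3 of the control at 240 min, and 176 without replicate 1 of the control at 120 min. Of the 31 at 2-fold, 29 were higher at 240 min. DSE2, a glucanase that parts the daughter cell from its mother, read 980.1, 899.6 and 642 at 120 min and 2528, 2394 and 2505 at 240 min of heat, against 4546, 5194 and 4869.6 in the control at 240 min (difference 1.80 ± 0.26, adjusted p = 9.78e-05). The adenine deaminase AAH1 went from 189, 189.9 and 161 to 693, 710.2 and 628 (1.63 ± 0.12), and INA1 from 259, 185 and 161 to 977, 685 and 687 (1.68 ± 0.18). These 3 genes were below their controls at 120 min, with log2 folds of -2.58, -2.30 and -2.48, and nearer to them at 240 min, with -0.78, -0.67 and -0.80. PHO3 went from 892, 1042 and 896 to 2675, 3004 and 2995 (1.68 ± 0.17) and PRY2 from 1235, 876 and 825 to 2739.8, 2336 and 2437 (1.47 ± 0.19), and both ended above their controls.

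The 5 largest decreases of the heat effect after 120 min included 3 genes whose rise shrank. The permease AGP3 read 994, 1003 and 676 at 120 min and 239, 376 and 277 at 240 min (-1.10 ± 0.20). The glutathione peroxidase GPX1 read 718, 807 and 823 and 381, 286 and 386 (-0.93 ± 0.12), and JLP1 4344, 6269.7 and 4526 and 2019, 2954 and 2221 (-0.94 ± 0.25). The call of JLP1 was lost without replicate 1 at 240 min of heat (-0.79) and without replicate 2 at 120 min (-0.77). MDM35, a lipid-transfer partner in mitochondria, had a log2 fold of 0.77 at 120 min and -0.15 at 240 min (-0.91 ± 0.12), and the second did not pass the test. GCV3 fell further, from -1.12 to -2.16 (-1.04 ± 0.18), and so did GCV1 (-0.79 ± 0.15) and SHM2 (-0.59 ± 0.12).

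**Figure D5:**
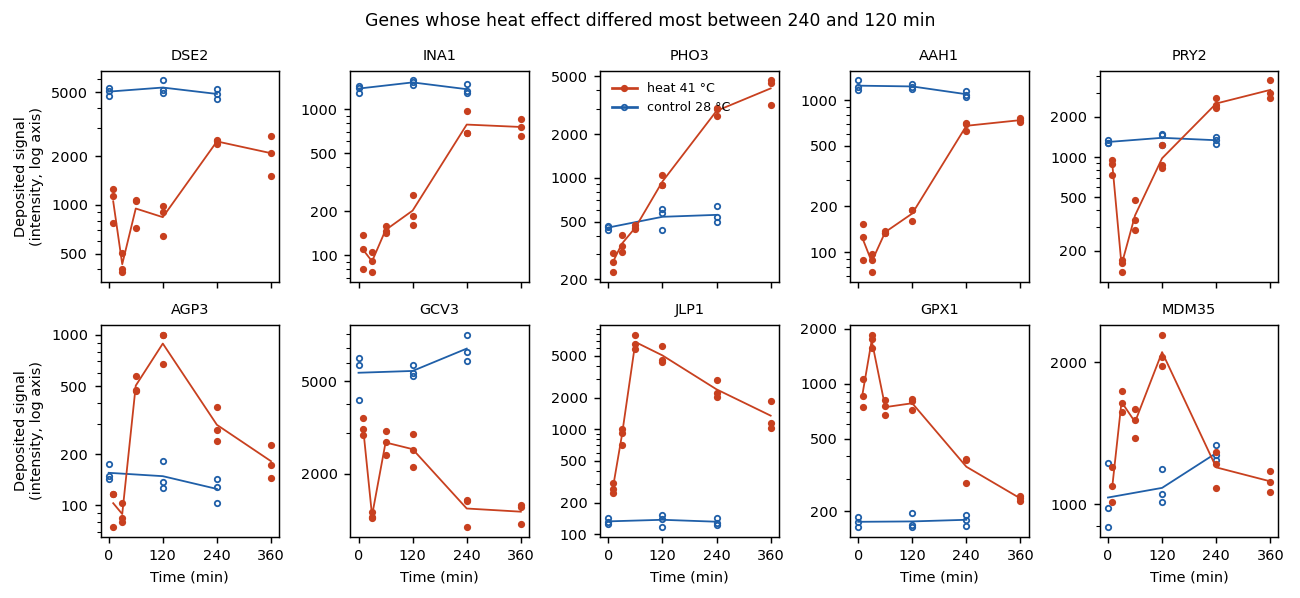
Deposited signal (log axis) by time (min) of the 5 genes whose heat effect was higher at 240 than at 120 min by the most (upper row) and of the 5 for which it was lower (lower row), 1 point per array, heated filled, control open, lines through group means. DSE2, INA1 and AAH1 approach their controls, PHO3 and PRY2 pass them, and AGP3, JLP1 and GPX1 decline towards theirs.

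Among the lists, 20 of 140 ribosome biogenesis genes and 18 of 68 genes of mitosis and cytokinesis had a higher effect at 240 min than at 120 min, and none of either had a lower one, against 5.45% higher over all genes. Wall genes had 21 higher and 1 lower of 58. In the values as deposited 11, 10 and 11 genes of these lists were higher. In the other direction stood 16 of 44 proteasome genes and 19 of 70 genes for mitochondrial ribosomal proteins, with none higher, against 5.18% lower over all genes, and in the values as deposited 25 and 26 were lower. The mitochondrial ribosomal proteins had a median of 0.28 at 120 min, with 47 rises and no fall, and of -0.02 at 240 min, with 12 rises and 18 falls, the sign of the second turning in the values as deposited (0.06). The ribosomal protein genes of the cytosol had no called difference, with medians of -0.26 and -0.26.

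Few genes were called in the controls while their OD600 went from 0.5 to 1.5. Between 0 and 240 min at 28 °C limma called 4 genes (0.0707%), against 220 at an unadjusted p under 0.05. YBR085C-A fell from 1057, 1162 and 1095 to 795, 821 and 837 (-0.47 ± 0.08), and BDS1, a sulfatase, from 1138, 1150.0 and 1177 to 665, 818 and 849 (-0.61 ± 0.12). EEB1, which makes ethyl esters of fatty acids, rose by 0.63 ± 0.09 and the small nucleolar RNA SNR34 by 0.37 ± 0.07. With the replicate number as a block, which fits same-numbered arrays at 0 and 240 min as pairs, 13 genes were called, 3 of the 4 among them, and BDS1 was not (limma's adjusted p = 0.0666). With only the 6 arrays compared, none of these 4 genes was called. With 1 array left out 1 to 3 genes were called, 1 or 2 of them among the 4, and the count was 1 without replicate 1 or 2 at 240 min or replicate 2 at 0 min. Set against the control at 0 min in place of that at 240 min, the heated arrays at 240 min gave 3574 called genes, 3240 of them called in the same direction in both comparisons, 1 in opposite directions, 227 only against 240 min and 333 only against 0 min.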

How the data were processed

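Total RNA from 9 groups of 3 samples was labelled with biotin and hybridised to Affymetrix arrays. The deposited values are intensities, 1 per probe set and array, made by the authors with MAS5 per the submitters' processing notes; its version and scaling were not stated there, and the lowest value is 20. Of 9335 probe sets 60 were array controls, 6504 had 1 gene, 328 several and 2443 none in the platform annotation, with names updated through RefSeq. The brightest probe set stood for each of 315 genes with several. The arrays' medians over the 5656 genes differed by up to 1.28-fold, so the arrays were quantile normalized, 113.81 was added and log2 taken. limma 3.58.1 (R 4.3.3) fitted 1 mean per group over 27 arrays, with eBayes and a variance trend, and p-values were adjusted by Benjamini and Hochberg over all genes. Differences of heat effects were contrasts of the same fit. The procedure was tested on simulated data. Figures were drawn with matplotlib 3.10.9.

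Groups came from the labels. The 56 gene lists and the genes described were chosen with earlier results of these data known. Genes named are the 12 largest rises and falls whose groups do not overlap and whose higher mean exceeds the median level, up to 4 called members per list by size, the transcription factors, reference genes and mating markers, and the 5 largest differences each way per contrast. Other list members were named for their role or direction after their values were seen. Same-numbered heated and control arrays at 240 min did not all deviate together (r = -0.17, 0.19 and 0.42), which leaves their pairing unsettled. No block was used there, and the blocked count is given among the alternatives. Same-numbered controls at 0 and 240 min all deviated together (0.31, 0.57 and 0.30), and the blocked count is given for them. The tested alternatives were the scaling, background, offset, filter, probe set choice, variance, blocks, threshold, control and each array left out. The number of arrays limits the precision. Probe sets with several genes were left out.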

Additional observations from a re-analysis of the deposited data

Results flagged for a closer look

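Differences between the heat effects at different times, each tested as a contrast, stood out for 601 genes between 240 and 120 min and for 3837 between 240 and 30 min. Against 120 min the effect at 240 min was higher on the log2 scale for DSE2 (1.80), INA1 (1.68), PHO3 (1.68), AAH1 (1.63) and PRY2 (1.47), and lower for AGP3 (-1.10), GCV3 (-1.04), JLP1 (-0.94), GPX1 (-0.93) and MDM35 (-0.91). Against 30 min it was higher for RPL13A (3.25), PRY2 (3.19), RPL6B (2.98), RNR1 (2.94) and RPA135 (2.88), and lower for FMP45 (-3.69), RDN5-1 (-3.62), YDL218W (-3.55), YNL194C (-3.23) and SIP18 (-3.10).

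Signal also differed among 2443 probe sets that carry no gene name in the annotation used here and entered none of the comparisons. limma called 1330 of them between heat and control at 240 min, 533 higher and 797 lower, with 68 at least 2-fold. The largest rises were in the probe sets 7021_at (2.81) and 3316_f_at (2.17), which went from 139 ± 33 (SD, n = 3) to 1605 ± 306 and from 525 ± 66 to 2613 ± 275. The largest falls were in 8120_at (-2.14) and 10902_at (-1.89), from 1254 ± 73 to 198 ± 14 and from 3368 ± 211 to 794 ± 99.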

How the results depend on the processing

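Of 5015 values of 244 gene results recomputed under the alternatives, 4967 kept their direction and their side of the threshold, 40 lost the call, 2 gained one and 6 changed sign. The count of 3468 called genes ranged from 3145 to 3280 with 1 array left out, was 3715 on the 6 arrays alone and 3461 with the assumed culture as a random block, and was 1776 with genes above the median level only, where fewer genes were tested. With the replicate block it was 3790, and 542 and 4156 for the differences from 120 and 30 min. Whether same-numbered heated and control arrays are pairs was not settled. Same-numbered heated arrays at 240 and 120 min had r = 0.14, 0.13 and 0.36, and the controls at these times -0.09, -0.62 and -0.14. The 203 rises of at least 2-fold became 353 with the non-yeast level subtracted and 345 without offset (199 to 208 with 1 array left out), and the 144 falls became 281, 279 and, with an offset of 20, 222 (135 to 151), since a smaller offset enlarges the folds of dim genes. Of the called genes 46.1% were higher, against 54.7% in the values as deposited and 43.8% with array medians equalized. The 601 genes that differed from 120 min became 397 above the median level, 250 at a threshold of 0.01 and 386 to 739 with 1 array left out, and the 3837 that differed from 30 min became 2028 above the median level (3692 to 3815). The 4 genes called between controls became 7 as deposited, 9 with the background subtracted, 13 with the replicate block, 7 with the random block, 2 at 0.01 and 1 to 3 with 1 array left out. Signs turned for ACT1 (-0.015 as deposited, -0.12 with medians equalized), TDH3 (0.11 and 0.0086), STE3 (-0.028 with the background subtracted) and MSN2 (0.0072 without replicate 3 of the control). ECM16 and CAR1 lost their call against the control at 0 min. The median changed sign under at least 1 alternative in 15 of 56 lists. Except where stated, the cause was not tested. Shares of promoters with a motif were not run. The signal of dim genes lies near that of the non-yeast probe sets, which limits their folds.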

Other observations

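Transcripts other than messenger RNA were not among the lists above. The array holds 91 tested tRNA genes, of which 85 (93.4%) fell and 2 rose at 240 min of heat. The heated and control arrays did not overlap for 90. Over all genes 33% fell, 28.3% rose and 70.5% did not overlap. Their median deposited signal was 283 to 316 on the heated arrays and 696 to 907 on the control arrays. The median log2 fold was -1.09 at 240 min and -1.30 at 120 min, but -0.01 at both 30 and 10 min. The difference between 240 and 30 min was called as lower for all 91, against 36.8% over all genes. Between the controls at 240 and 0 min the median was 0.12. Many tRNA genes are near-identical copies that share probe sequence, so the 91 are not independent, and the non-yeast and ribosomal RNA probe sets were also lower on the heated arrays; their part in the result was not tested.

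Small nucleolar RNAs, which guide the modification of ribosomal RNA, moved both ways, with 18 rises and 27 falls among 57 and a median of -0.18. All 4 ribosomal RNA genes tested fell, with a median of -1.26 at 240 min against 0.90 at 30 min. One of them, RDN25-1, had a wide spread among the heated arrays. The lower signal of the non-yeast probe sets on the heated arrays applies here too, and its part in these values was not tested. Of 4 spliceosomal RNAs 2 rose and 2 fell. SNR14, the U4 RNA, read 1679.6, 1795 and 1772 in heat and 568, 663 and 498 in the control (1.43 ± 0.13).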
